A study of Mus musculus with 139 samples.

Results

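The H3K27ac peaks described here are the 1992 regions that the authors' peak list for untreated cells (0 h) contained and that no region of their list for cells treated for 4 h overlapped by even 1 bp. The 0 h list held 16239 peaks, so the lost peaks were 12.3% of it, and the other 14247 peaks are called kept. Of the lost peaks, 724 lay within 2 kb of either end of a protein-coding locus and 1268 lay farther away, 613 of these inside a locus and 655 between loci. The comparison of the 2 lists chose the members, so their number, widths and positions are given as descriptions without a test. RNA measured in the same cell line had no part in choosing them.

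AID-FBEXOSC2, the line studied, is made of mouse embryonic stem cells (ESCs) in which EXOSC2, a subunit of the RNA exosome, carries an auxin-inducible degron that lets the auxin IAA trigger its breakdown. All groups carried the degron and grew in serum with LIF on gelatin, apart from the retinoic acid group. The treated groups received 0.5 mM IAA, and the 0 h groups received none. H3K27ac was profiled by ChIP-seq in 2 libraries at 4 h and in 2 pairs of 0 h libraries, labelled as controls for 4 h and for 20 h. RNA came from 2 libraries per group. It comprised rRNA-depleted total RNA at 0 h, 4 h and 20 h, and nascent RNA labelled for 10 min with 5-ethynyluridine at 0 h, 1 h, 2 h and 4 h. It also comprised RNA of the chromatin RNP fraction at 4 h and 0 h, and polyadenylated RNA at 0 h, 4 h and 20 h of cells named RAD0, which had no retinoic acid. A RAD1 group had 24 h of 2 µM retinoic acid without LIF and no IAA. No IAA-treated cells without the degron are used here, so each comparison combines loss of EXOSC2 with exposure to IAA. The labels do not say whether replicates came from separate cultures, so p-values measure the spread between libraries, which may be technical.

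Acetylation of lysine 27 of histone H3 is placed by the acetyltransferases EP300 and CREBBP and removed by histone deacetylases. It marks active promoters and active enhancers, and in ESCs it is found beside genes of the pluripotency network. The RNA exosome degrades and trims RNA in the nucleus and cytoplasm, including the short-lived transcripts that arise upstream of promoters and at enhancers. A peak is a stretch of genome where a caller found more reads than its background model allows, so a peak absent from a list fell below the caller's threshold there and need not have lost its signal. The deposited peak lists hold positions only, with no height, score or depth.

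The 4 h list was the longer of the lists, with 20449 peaks against 16239 peaks in the 0 h list, and 6289 of its peaks (30.8%) overlapped no 0 h peak. Its peaks had a median width of 1195 bp, against 1134 bp for the 0 h list. The sources used here do not say whether libraries were pooled for calling, nor which pair of 0 h libraries gave the 0 h list. ESC identity was checked in the total RNA. All 8 ESC markers listed, among them Pou5f1, Nanog and Sox2, were at or above 1 FPKM in both libraries at 4 h and at 0 h. Of the markers of other cells, 2 of 7 for fibroblasts, 1 of 5 for primitive endoderm, 0 of 4 for trophoblast and 1 of 3 for neural cells reached that level in both groups. Exosc2 mRNA had 2.64 and 2.17 FPKM at 4 h, against 3.75 and 2.74 FPKM at 0 h, and did not pass the test (log2 fold change -0.31 ± 0.16, limma adjusted p = 0.165). The degron acts on the protein, so this level does not check the depletion.

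Promoter windows of 7 genes beside lost peaks are shown first, since the RNA results below return to them. Each window runs from 250 bases before to 50 bases after the annotated start, 5′ to 3′ on the gene's strand, from RefSeq on GRCm38.p6, the assembly that mm10 names. D930048N14Rik, Kat2b and Ubox5 came from the rule for named genes and have windows that overlap a lost peak. Neurod1 is named by that rule too, but its window overlaps no lost peak and was added after its values were seen. Chac1, Foxd3 and Isyna1 were also added after their values were seen. Chac1 was chosen for a large fall in polyadenylated RNA and Isyna1 for one in total RNA at 20 h. Foxd3 was chosen for a lost peak that covers its start. Capitals mark matches on either strand to GGGCGG (the GC box, the element SP and KLF factors bind), CCAAT (the CCAAT box, bound by NF-Y), CCACCC (the CACCC box, bound by KLF factors) and TATAAA (the TATA box, bound by TBP).
D930048N14Rik: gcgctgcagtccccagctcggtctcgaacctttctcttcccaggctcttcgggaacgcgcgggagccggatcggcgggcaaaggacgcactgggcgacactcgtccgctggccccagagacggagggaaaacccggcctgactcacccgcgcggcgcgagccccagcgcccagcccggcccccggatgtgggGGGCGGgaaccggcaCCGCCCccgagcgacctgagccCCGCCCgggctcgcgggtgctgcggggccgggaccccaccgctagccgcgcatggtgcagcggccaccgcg
Kat2b: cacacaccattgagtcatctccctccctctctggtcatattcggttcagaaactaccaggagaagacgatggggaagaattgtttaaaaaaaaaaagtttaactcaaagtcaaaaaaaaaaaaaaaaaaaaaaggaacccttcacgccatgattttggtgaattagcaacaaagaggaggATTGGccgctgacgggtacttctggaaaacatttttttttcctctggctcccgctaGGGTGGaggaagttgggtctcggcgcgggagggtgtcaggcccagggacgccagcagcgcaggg
Ubox5: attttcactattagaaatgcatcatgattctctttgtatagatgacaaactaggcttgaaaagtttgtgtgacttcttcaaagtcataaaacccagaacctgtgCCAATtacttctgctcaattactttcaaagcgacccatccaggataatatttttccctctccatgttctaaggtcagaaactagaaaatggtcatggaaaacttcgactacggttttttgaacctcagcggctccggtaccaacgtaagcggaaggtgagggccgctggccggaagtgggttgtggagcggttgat
Neurod1: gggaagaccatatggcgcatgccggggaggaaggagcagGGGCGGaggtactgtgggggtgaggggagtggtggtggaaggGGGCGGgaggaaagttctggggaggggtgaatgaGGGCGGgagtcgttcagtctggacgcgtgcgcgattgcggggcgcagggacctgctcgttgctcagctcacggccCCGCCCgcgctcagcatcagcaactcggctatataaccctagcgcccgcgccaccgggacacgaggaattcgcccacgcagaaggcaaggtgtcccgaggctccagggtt
Chac1: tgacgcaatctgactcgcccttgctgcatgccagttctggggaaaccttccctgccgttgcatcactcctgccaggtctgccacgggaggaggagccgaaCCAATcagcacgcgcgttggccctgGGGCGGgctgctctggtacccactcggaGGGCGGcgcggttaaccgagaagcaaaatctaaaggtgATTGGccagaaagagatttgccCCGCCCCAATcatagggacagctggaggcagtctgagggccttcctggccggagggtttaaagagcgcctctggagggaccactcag
Foxd3: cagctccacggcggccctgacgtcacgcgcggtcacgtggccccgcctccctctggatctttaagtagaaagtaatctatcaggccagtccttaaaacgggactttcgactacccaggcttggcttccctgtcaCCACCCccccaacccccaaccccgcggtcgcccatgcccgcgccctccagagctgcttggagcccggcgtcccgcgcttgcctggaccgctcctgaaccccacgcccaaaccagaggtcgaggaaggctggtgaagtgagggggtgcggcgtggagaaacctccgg
Isyna1: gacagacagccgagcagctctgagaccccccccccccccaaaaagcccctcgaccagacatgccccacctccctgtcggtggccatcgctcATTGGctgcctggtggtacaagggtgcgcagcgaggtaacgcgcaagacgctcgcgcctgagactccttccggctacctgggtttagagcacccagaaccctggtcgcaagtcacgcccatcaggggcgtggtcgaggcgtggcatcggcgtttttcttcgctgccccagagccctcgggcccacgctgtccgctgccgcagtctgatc
The Kat2b window (chr17:53566721-53567020, plus strand) had 291 of its bases in the lost peak, 1 CCAAT box and 1 CACCC box, and a GC content of 47.0%. The Chac1 window (chr2:119350992-119351291, plus strand) had 277 bases in the lost peak, 3 GC boxes and 3 CCAAT boxes. The Foxd3 window (chr4:99656049-99656348, plus strand) had 271 bases in the lost peak and 1 CACCC box. The Ubox5 window (chr2:130629989-130630288, minus strand), with 101 bases in the lost peak, was the poorest of the 7 in GC, at 43.0%. The windows of D930048N14Rik (chr11:51650704-51651003, plus strand) and Isyna1 (chr8:70594231-70594530, plus strand) each had 82 bases in a lost peak. The D930048N14Rik window was the richest in GC, at 76.0% with 41 CpG. The Neurod1 window (chr2:79456587-79456886, minus strand) held 4 GC boxes and no base of a lost peak. It lay between the lost peaks upstream and a peak found only at 4 h downstream.

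Over all promoters, 416 of the 19861 RefSeq windows matched to genes of the tables (16290 genes) overlapped a lost peak and 6218 overlapped a kept one. A GC box occurred in 72.6% of the windows with a lost peak only, against 68.3% of those with a kept peak only and 47.6% of all windows. A CCAAT box occurred in 43.8% of the lost windows, 38.8% of the kept windows and 37.8% of all windows. The CACCC box was at 36.4% of lost, 35% of kept and 34.1% of all windows. The TATA box was at 3.42% of lost, 5.46% of kept and 12.1% of all windows. The YY1 core, ATGGCGG, was at 6.85% of lost, 12.0% of kept and 5.36% of all windows, and the TEAD core, GGAATG, at 14.2% of lost, 10.9% of kept and 13.4% of all windows. The other searches were CACGTG (E-box), TGANTCA (AP-1 site), TGACGT (CRE core), TGCAAAT (octamer core), ACAAAG (SOX core), AAGGTCA (nuclear receptor site), CCGGAAG (ETS core), GCGCATG (NRF1 core) and the p53 site, on both strands, and matches of different motifs may overlap. The median GC content was 61.7% in the lost and in the kept windows, against 57.0% in all windows, and the median number of CpG was 22 in lost, 23 in kept and 14 in all windows. Each motif share describes letters in a window and was not tested.

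**Figure D1:**
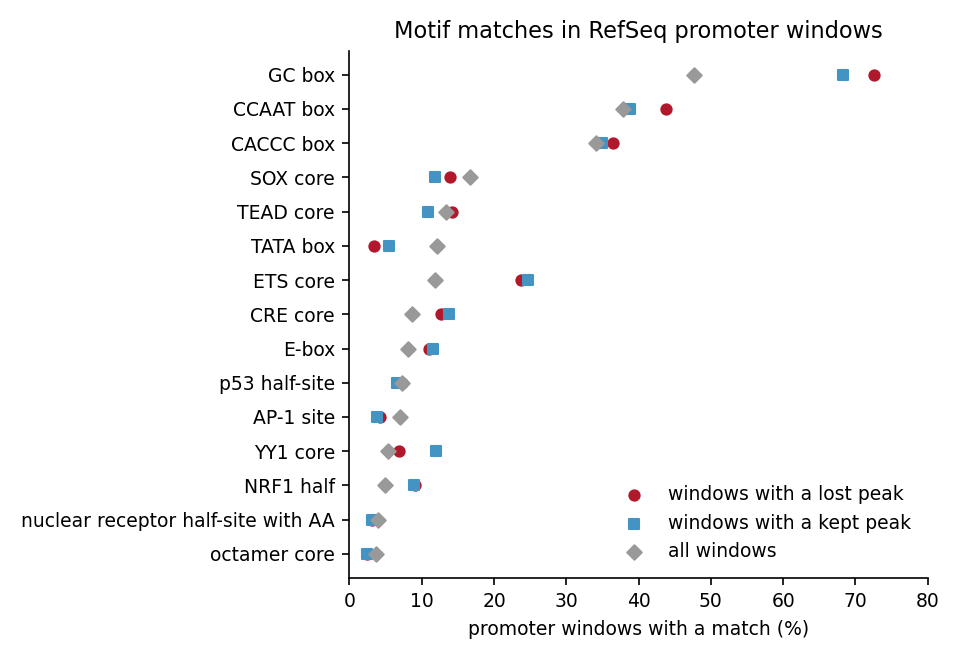
Share of RefSeq promoter windows of 300 bases (x axis, percent) with at least 1 match on either strand to each motif named on the y axis, for windows with a lost peak only (circles), windows with a kept peak only (squares) and all windows (diamonds). Lost and kept windows sit close together for most motifs, with the GC box at 72.6% of lost and 68.3% of kept windows.

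Lost peaks were narrow. Their median width was 742 bp (quartiles 575 and 1000 bp, range 337 to 3101 bp), against 1198 bp for kept peaks (quartiles 865 and 1634 bp, range 337 to 3924 bp). The share lost was 28.2% among 0 h peaks under 804 bp, 12.0% between 804 and 1134 bp, 6.66% between 1134 and 1572 bp and 2.26% among wider ones. A smaller share of lost peaks was near gene ends. Of the lost peaks 36.3% were within 2 kb of a gene end (95% exact binomial interval 34.2 to 38.5%), against 53.4% of kept peaks (52.5 to 54.2%). Inside loci lay 30.8% of the lost peaks and 18.8% of the kept peaks, and between loci 32.9% of the lost and 27.8% of the kept. The share lost was 16% of distal 0 h peaks and 8.7% of proximal ones. Among peaks under 804 bp it was 31.3% of distal and 24.7% of proximal peaks, and among those of 1572 bp or more 3.59% of distal and 0.861% of proximal peaks. The distal share was the higher one in all 4 width classes. Intervals cover counting error only.

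**Figure D2:**
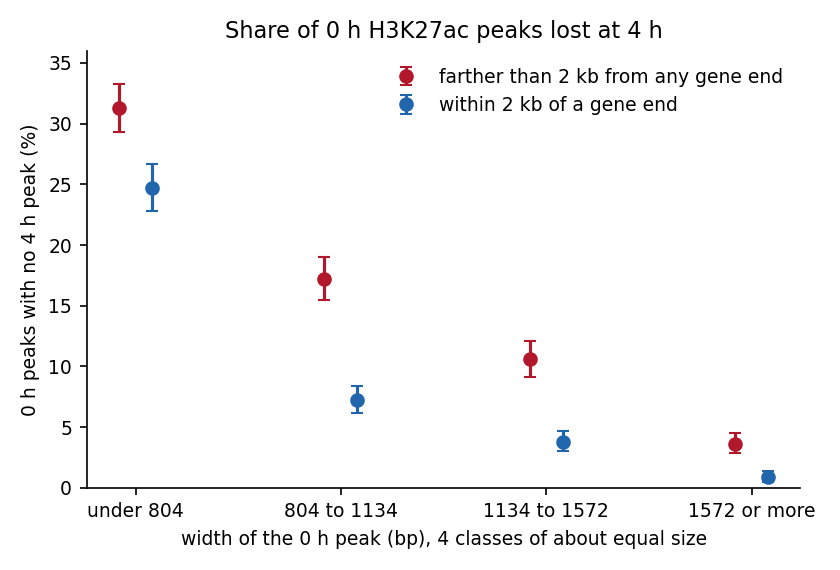
Percent of 0 h H3K27ac peaks with no overlapping 4 h peak (y axis) in 4 width classes of the 0 h list (x axis, bp), for distal peaks (red) and peaks within 2 kb of a gene end (blue). Bars are 95% exact binomial intervals, and wider peaks were lost at lower shares, down to 3.59% of distal and 0.861% of proximal peaks in the widest class.

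Loss at the level of a call did not always mean an empty neighbourhood. The nearest 4 h peak was a median of 10044 bp away, over the 1991 lost peaks on a chromosome with any. For 337 lost peaks (16.9%) it was within 500 bp, and for 497 (24.9%) within 2000 bp. A kept 0 h peak lay within 10000 bp of 765 lost peaks (38.4%), against 41.2% of kept peaks with another kept peak in that range. Another lost peak lay as near for 171 (8.58%), and 141 (7.08%) had a peak found only at 4 h within 2000 bp. Lost peaks came from every chromosome listed, with a share between 10.4% of 0 h peaks on chromosome 14 and 16.2% on chromosome 10. At the edge of the rule, the lost peak nearest to a 4 h peak was beside Cox6c, a subunit of cytochrome c oxidase, 5 bp away. Those beside Adam19, Dmd, Msc and Gm6871 were 15, 44, 53 and 53 bp away. Just outside it, the kept peaks with the smallest overlaps were beside Scn3a (34 bp), Abcc5 (65 bp), Tmem245 (79 bp), Slc25a42 (215 bp) and Minpp1 (241 bp).

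The widest lost peaks were at chr10:78365155-78368256 (3101 bp, between loci, nearest gene Agpat3) and chr7:100492709-100495676 (2967 bp, within 2 kb of Ucp2, a mitochondrial carrier). The next were beside Pitpnc1 (2795 bp), Kctd9 (2545 bp), Pim1 (2543 bp, a serine/threonine kinase gene), Map1b (2408 bp), Flnc (2393 bp, encoding filamin C) and Itpr1 (2349 bp, an inositol trisphosphate receptor). Positions are those of the authors' mm10 lists, which do not say whether starts count from 0 or 1. The most lost peaks within or near a locus, 3 each, were at Gnai2 (3 of 3 peaks), Glod5 (3 of 4), Mtcl1 (3 of 5), Lamc1 (3 of 6) and Gm21949 (3 of 8). Gnai2, encoding an inhibitory G protein subunit, had 32.8 and 34.1 FPKM of total RNA at 4 h, against 38.4 and 37.9 FPKM at 0 h, and did not pass the test (log2 fold change -0.18 ± 0.11, limma adjusted p = 0.216).

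Of the 21807 protein-coding genes in the tables, 836 had a lost peak within 2 kb of an end. For 522 of them every 0 h peak there was lost, and 450 of these had no 4 h peak within 2 kb while 72 had gained a separate one. The other 314 genes kept at least 1 peak beside the lost one. A further 7755 genes had kept peaks only and 13216 had no 0 h peak there. Among proximal peaks beside a gene of known strand, 522 of 586 lost peaks (89.1%) and 5744 of 6148 kept peaks (93.4%) were near a 5′ end. Median RNA before treatment was lowest, among genes with a 0 h peak, where all peaks were lost. The median total RNA at 0 h was 4.66 and 4.22 FPKM in the 2 libraries, against 10.6 and 9.75 FPKM for genes with some peaks lost, 8.81 and 8.19 FPKM for genes with kept peaks only and 0 FPKM for genes with none.

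Naive pluripotency genes, which keep mouse ESCs in their ground state, held the most lost peaks of the lists examined, but also the most 0 h peaks. By share they did not lead, with 20.0% lost in the lineage factor list and 7.02% in the polycomb list. Of the 22 naive genes, 19 had a 0 h peak within 2 kb and 4 had a lost one (Klf2, Zfp42, Fgf4 and Prdm14). Of all 21807 protein-coding genes 836 had a lost peak there, and 13216 had no 0 h peak there. Of the 98 0 h peaks nearest to naive list members 10 were lost (10.2%, interval 5.0 to 18%), a share whose interval includes the 12.3% of the whole list. Tbx3, a T-box factor, had 4 lost peaks among the 12 nearest to it and Klf5 had 2 of 11, the nearest of them 43804 bp from Tbx3 and 51375 bp from Klf5. Among the 18 core pluripotency genes none had a lost peak within 2 kb, and 5 of their 71 nearest peaks were lost, 4 of them around Mycn and 1 near Sox2. In polyadenylated RNA at 4 h, 14 of the 22 naive genes fell, and 9 of the 18 core genes fell, against 16.6% of all protein-coding genes tested. After libraries were rescaled by their median ratio over genes, 8 naive and 8 core genes fell, against 5.52% of all genes. The lists were drawn up with earlier results of these data known.

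Klf2, a Krüppel-like factor of the naive network, lost a peak of 561 bp from 999 to 1560 bp inside its locus, while a peak from 81 to 770 bp was kept. Its total RNA was 19.8 and 20.2 FPKM at 4 h, against 43.3 and 42.0 FPKM at 0 h (log2 fold change -1.06 ± 0.11, limma adjusted p = 0.00644). Polyadenylated RNA was 42.8 and 38.9 FPKM at 4 h and 88.5 and 103 FPKM at 0 h (-1.21 ± 0.10, adjusted p = 0.000184). The groups did not overlap in either assay. Nascent Klf2 RNA was 7.13 and 4.95 RPKM at 4 h, against 8.13 and 13.2 RPKM at 0 h, and did not pass (-0.71 ± 0.42, adjusted p = 0.466).

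Zfp42, which encodes the ESC marker REX1, lost a 506 bp peak centred upstream of its start and kept 3 others nearby. Its total RNA was 35 and 43.6 FPKM at 4 h, against 84.8 and 75.2 FPKM at 0 h (log2 fold change -1.01 ± 0.15, limma adjusted p = 0.0142). In polyadenylated RNA it had 62.8 and 61.5 FPKM at 4 h, against 103 and 104 FPKM at 0 h (-0.73 ± 0.06, adjusted p = 0.000163). Prdm14, a regulator that restrains FGF signalling and DNA methylation in ESCs, lost a peak of 1284 bp over an end of its locus. It had 1.47 and 1.6 FPKM of total RNA at 4 h, against 4.53 and 4.17 FPKM at 0 h (-1.08 ± 0.13, adjusted p = 0.00953). Fgf4, the ligand that drives ESCs towards lineage commitment, lost a peak from 101 to 1001 bp downstream of its start and kept the one from 1308 to 2685 bp. Its polyadenylated RNA was 63.7 and 63.7 FPKM at 4 h, against 87.5 and 87.8 FPKM at 0 h (-0.45 ± 0.05, adjusted p = 0.0011). The calls of Zfp42 and Prdm14 in total RNA ended without the first 0 h library, at adjusted p = 0.0873 and 0.065. Zfp42 also fell short without the second (0.0537). The Prdm14 fall in polyadenylated RNA ended in 7 of 9 alternatives, with adjusted p between 0.0326 and 0.219 over all 9.

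**Figure D3:**
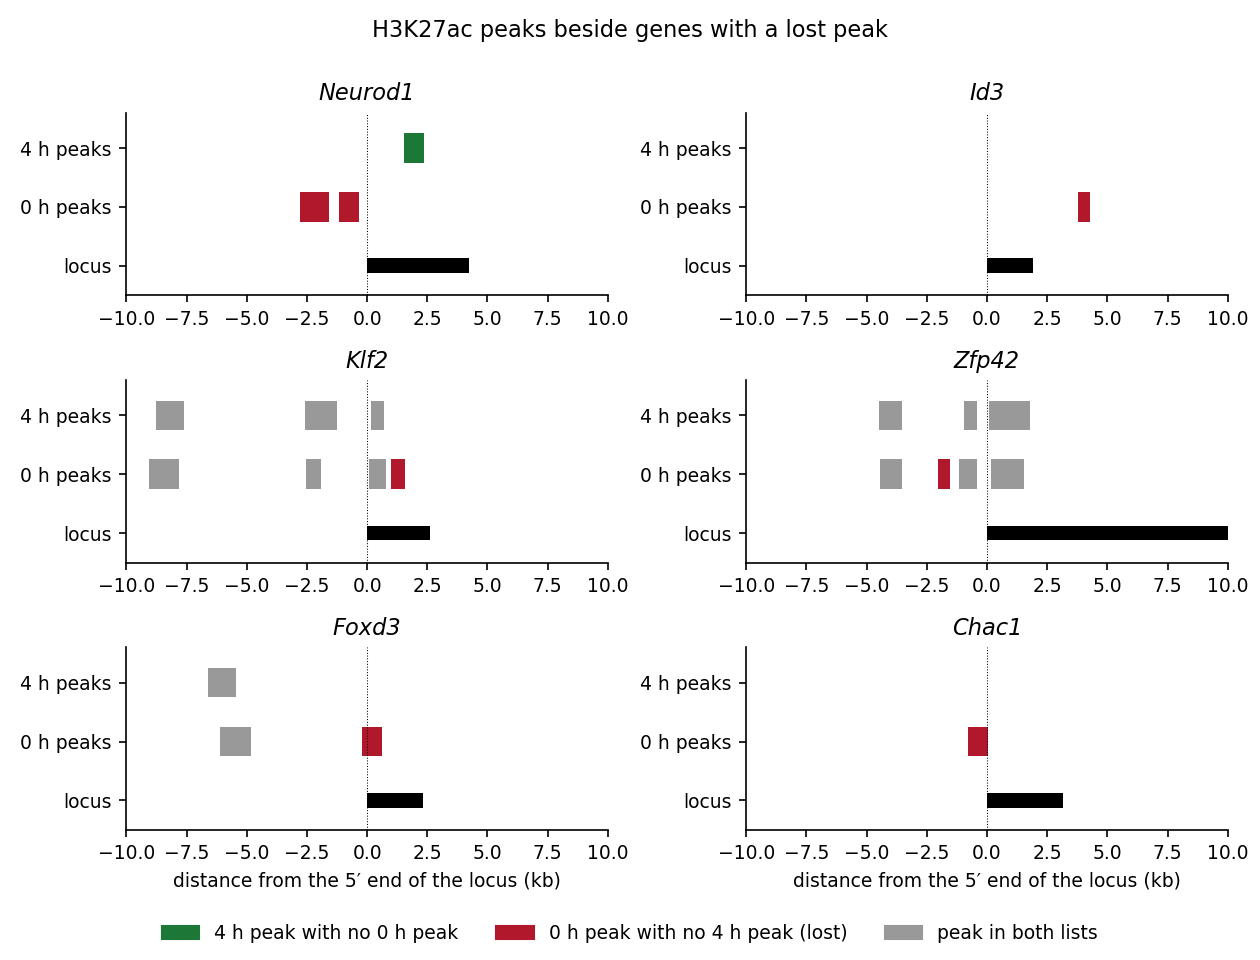
Peaks within 10 kb of the 5′ end of Neurod1, Id3, Klf2, Zfp42, Foxd3 and Chac1 (x axis, kb from the 5′ end, dotted line), drawn to scale with 4 h peaks above 0 h peaks and the locus below. Red bars are lost 0 h peaks, green bars 4 h peaks with no 0 h peak and grey bars peaks in both lists; Klf2 and Zfp42 kept 3 peaks each, while Neurod1, Id3 and Chac1 kept none in this range.

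In the BMP, Nodal and Wnt signalling list, 2 of 24 genes had a lost peak within 2 kb and 8 of the 56 nearest peaks were lost (14.3%, interval 6.38 to 26.2%). In polyadenylated RNA at 4 h 8 of the 23 tested fell and 1 rose, against 16.6% lower and 3.65% higher over all genes, and the counts after rescaling were also 8 and 1, against 5.52% lower and 4.7% higher. Id3, an inhibitor of basic helix-loop-helix factors and a direct BMP target, lost the only 0 h peak within 2 kb, at 3776 to 4296 bp from its start, downstream of its 1896 bp locus. Its total RNA was 9.27 and 11.2 FPKM at 4 h, against 29.9 and 27 FPKM at 0 h (log2 fold change -1.39 ± 0.15, limma adjusted p = 0.007). Its polyadenylated RNA was 6.03 and 7.67 FPKM at 4 h, against 17.5 and 17.9 FPKM at 0 h (-1.26 ± 0.11, adjusted p = 0.000183). Nascent Id3 RNA was 0 and 0.447 RPKM at 4 h, against 3.35 and 3.74 RPKM at 0 h (-1.92 ± 0.20, adjusted p = 0.0277). Id3 therefore fell in all 3 of these RNA assays, while in the chromatin RNP fraction it had 3.75 and 6.05 FPKM at 4 h, against 5.47 and 7.82 FPKM at 0 h, and did not pass (-0.38 ± 0.20, adjusted p = 0.248). That outcome rested on the scale, since after rescaling Id3 was called lower in this fraction (-0.72, limma adjusted p = 0.00244). The nascent call ended whichever of the 4 libraries was left out, with adjusted p between 0.0954 and 0.128.

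Bmp4, the ligand upstream of Id3, lost a 534 bp peak upstream of its start and kept the nearer one. Its polyadenylated RNA was 13.3 and 11.7 FPKM at 4 h, against 23.7 and 24.8 FPKM at 0 h (log2 fold change -0.91 ± 0.13, limma adjusted p = 0.00329). Its total RNA was 16.5 and 20.5 FPKM at 4 h, against 35.7 and 31.1 FPKM at 0 h (-0.82 ± 0.14, adjusted p = 0.0196), a call that ended without the first or second 0 h library or the first 4 h library, at adjusted p = 0.12, 0.0599 and 0.0585. Spry4, a feedback inhibitor of FGF and ERK signalling, lost a peak at chr18:38583822-38585081, beyond the low-coordinate end of its locus (chr18:38586268-38601268). Spry4 had 10.6 and 11.2 FPKM of total RNA at 4 h, against 25 and 24.2 FPKM at 0 h (-1.10 ± 0.11, adjusted p = 0.00608). In polyadenylated RNA it had 18.2 and 19.1 FPKM at 4 h, against 38.8 and 40.9 FPKM at 0 h (-1.06 ± 0.08, adjusted p = 8.09e-05). Dusp4, a phosphatase of the same pathway, lost a peak over an end of its locus (chr8:34806707-34807971). Total Dusp4 RNA was 3.17 and 4.63 FPKM at 4 h, against 9.56 and 7.66 FPKM at 0 h (-0.98 ± 0.18, adjusted p = 0.0213). That call ended without the first or second 0 h library or the first 4 h library, at adjusted p = 0.116, 0.0569 and 0.0652.

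Of 26 lineage factors, 6 had any 0 h peak within 2 kb, and Neurod1 and Foxd3 had lost ones. Over the list 6 of 30 nearest peaks were lost (20.0%, interval 7.71 to 38.6%). In polyadenylated RNA at 4 h Foxd3 fell and Neurod1 rose among the 19 tested (5.26% each), and no other list member passed. Over all protein-coding genes 16.6% were lower and 3.65% higher. After rescaling 1 list member fell and 1 rose, against 5.52% lower and 4.7% higher over all genes. Neurod1, a proneural basic helix-loop-helix factor, lost both of its 0 h peaks, at chr2:79457076-79457900 and chr2:79458314-79459534, which lie upstream of its start. A 4 h peak with no 0 h counterpart lay inside its locus, 1518 to 2360 bp downstream of the start. Its RNA was higher at 4 h. Nascent RNA was 13.6 and 17.1 RPKM at 4 h, against 1.7 and 1.15 RPKM at 0 h (log2 fold change 2.76 ± 0.23, limma adjusted p = 0.0219). Chromatin RNP RNA was 8.83 and 10.1 FPKM at 4 h, against 1.72 and 3.39 FPKM at 0 h (1.60 ± 0.19, adjusted p = 0.000324). Total RNA was 10.0 and 12.0 FPKM at 4 h, against 3.55 and 4.26 FPKM at 0 h (1.29 ± 0.14, adjusted p = 0.00796), and polyadenylated RNA was 21.9 and 25.3 FPKM at 4 h, against 8.88 and 9.82 FPKM at 0 h (1.25 ± 0.11, adjusted p = 0.000251). Every IAA library lay above every 0 h library in these 4 assays. The nascent call ended on dropping any one of its 4 libraries, which the other 3 calls did not do, at an adjusted p between 0.0826 and 0.113.

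Foxd3, a forkhead factor of pluripotent cells and neural crest, lost the single peak over its start (chr4:99656077-99656937). Its polyadenylated RNA was 8.95 and 12.1 FPKM at 4 h, against 20.4 and 22.4 FPKM at 0 h (log2 fold change -0.97 ± 0.18, limma adjusted p = 0.00952). The call ended with a pseudocount of 0.1 (limma adjusted p = 0.0792), and also without the second 0 h library or the first 4 h library. Total RNA was 6.69 and 8.84 FPKM at 4 h, against 13.2 and 13.1 FPKM at 0 h, and did not pass (-0.70 ± 0.25, adjusted p = 0.0736). At 20 h it was 0.975 and 0.19 FPKM in total RNA, against 13.2 and 13.1 FPKM at 0 h (-3.21 ± 0.25, adjusted p = 0.000116).

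Among 28 enzymes and readers of acetylation, Crebbp, Kat2b and Hdac3 had a lost peak within 2 kb, and 4 of 42 nearest peaks were lost (9.52%). In polyadenylated RNA at 4 h 10 of the 28 fell, against 16.6% over all genes, and 5 did after rescaling, against 5.52%. Kat2b, which encodes the acetyltransferase PCAF, had 7.41 and 7.74 FPKM of polyadenylated RNA at 4 h, against 11.1 and 11.2 FPKM at 0 h (log2 fold change -0.50 ± 0.08, limma adjusted p = 0.00547). Hdac3, a deacetylase, had 30.8 and 32.6 FPKM at 4 h, against 33.5 and 34.9 FPKM at 0 h, and did not pass (-0.11 ± 0.08, adjusted p = 0.429). Crebbp, which encodes an enzyme that places the mark, lost its only peak within 2 kb, over its start. It had 5.64 and 5.59 FPKM at 4 h, against 6.56 and 7.0 FPKM at 0 h (-0.23 ± 0.07, adjusted p = 0.0463), a call that ended on dropping any one library (adjusted p between 0.0765 and 0.195). It did not pass in total RNA, with 7.1 and 8.51 FPKM at 4 h, against 9.37 and 10.6 FPKM at 0 h (-0.32 ± 0.13, adjusted p = 0.101).

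Of the remaining lists, the RNA exosome and its cofactors had 1 member of 21 with a lost peak within 2 kb, Exosc4, a core ring subunit. Exosc4 had 18.1 and 16.1 FPKM of polyadenylated RNA at 4 h, against 21.1 and 23.4 FPKM at 0 h, and did not pass (log2 fold change -0.36 ± 0.12, limma adjusted p = 0.0645). In total RNA it had 9.66 and 14.9 FPKM at 4 h, against 22.3 and 21.6 FPKM at 0 h (-0.82 ± 0.22, adjusted p = 0.0413), a call that ended in 5 of 9 alternatives (adjusted p between 0.0265 and 0.216). At 20 h it fell in both, by 1.68 on the log2 scale in total RNA (adjusted p = 0.000565) and by 0.86 in polyadenylated RNA (adjusted p = 0.000346). Immediate early genes had 1 of 21, Fosl2, a FOS family member at or below 0.449 FPKM in every 4 h and 0 h library of the total and polyadenylated RNA. Of 25 p53 targets, 22 polycomb genes and 25 ribosome biogenesis genes none had a lost peak within 2 kb, and 4 of 36, 4 of 57 and 3 of 26 nearest peaks were lost. None of the 9 listed noncoding RNAs with a 0 h peak within 2 kb had a lost one. In polyadenylated RNA at 4 h, where 16.6% of all protein-coding genes were lower and 3.65% higher, 20 of the 25 p53 targets rose and 1 fell. Of the polycomb genes 9 of 22 fell, of the ribosome biogenesis genes 9 of 25 fell, of the exosome genes 4 of the 19 tested fell and 1 rose, and of the immediate early genes 9 of 18 fell and 1 rose. After rescaling, where 5.52% of all genes were lower and 4.7% higher, 19 p53 targets rose and 1 fell, and 3 polycomb genes fell. In the rescaled libraries 2 ribosome biogenesis genes fell and 1 rose, 0 exosome genes fell and 1 rose, and 6 immediate early genes fell and 1 rose.

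**Figure D4:**
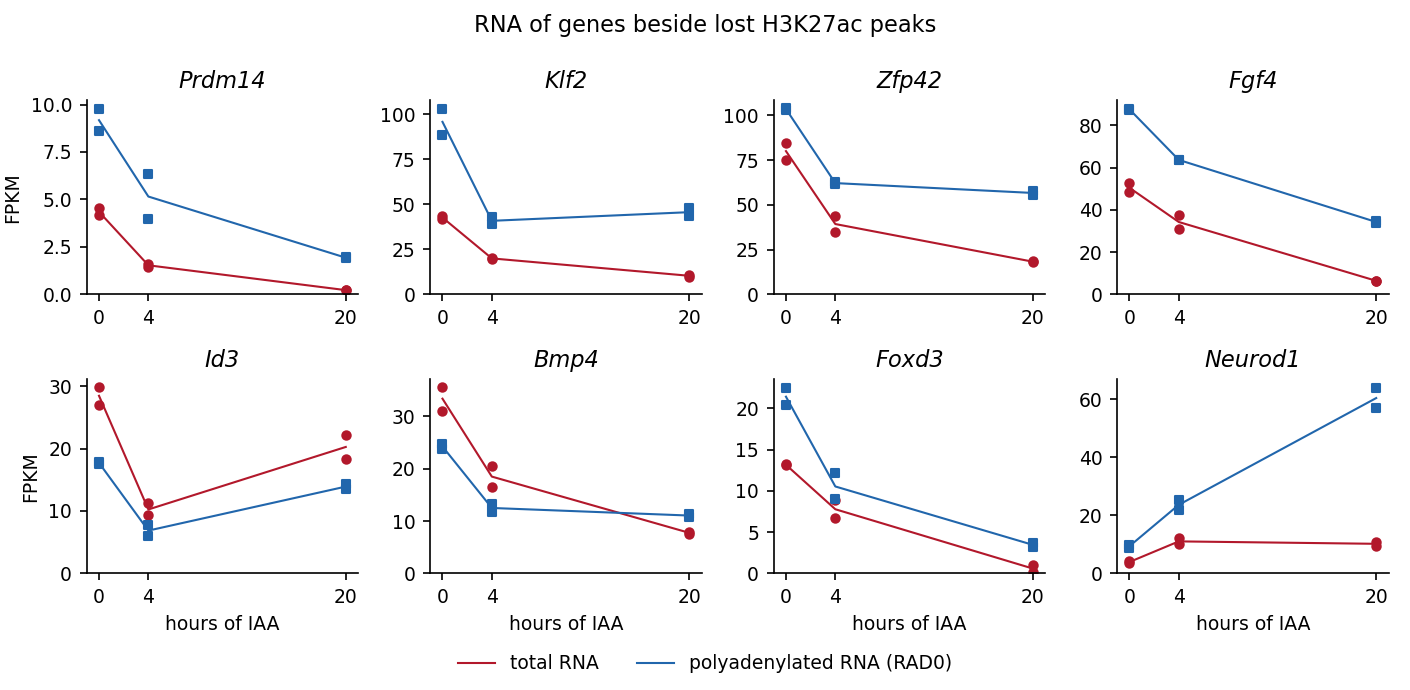
RNA level in FPKM (y axis, from 0) of 8 genes with a lost peak within 2 kb at 0, 4 and 20 h of IAA (x axis, hours, to scale), in total RNA (red circles) and polyadenylated RNA of RAD0 cells (blue). Each point is 1 library and lines join the means of 2 libraries; Klf2, Zfp42, Prdm14, Fgf4, Bmp4, Id3 and Foxd3 are lower at 4 h than at 0 h and Neurod1 is higher.

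Across the 836 genes with a lost peak within 2 kb, falls in steady-state RNA at 4 h were more frequent than rises, as they were over all protein-coding genes. In polyadenylated RNA 762 of them were tested, and 178 fell (23.4%) while 22 rose, against 16.6% lower and 3.65% higher over all 12144 genes tested. Fewer passed when any 1 library was left out, and the median log2 fold change of the genes with a lost peak was then between -0.18 and -0.16. No share over all genes is given for these settings. Genes with some peaks lost fell in 29.5% of cases, genes with all peaks lost in 19.3% and genes with kept peaks only in 20.8%. The median log2 fold change was -0.18 for genes with a lost peak, -0.15 for genes with kept peaks only and -0.13 over all genes. In total RNA 200 of 705 fell (28.4%) and 10 rose, against 23.9% lower and 2.17% higher over all 10360 genes. There the share lower was 31.3% with some peaks lost, 26.2% with all lost and 26.4% with kept peaks only, with medians of -0.36, -0.33 and -0.35. The highest share lower was that of genes with both kinds of peak, whose median RNA at 0 h was also the highest. The differences between these classes were not tested.

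The size of these counts rested on the scale. When each library was rescaled by its median ratio over genes, the median log2 fold change of all genes moved from -0.33 to -0.01 in total RNA, from -0.13 to -0.03 in polyadenylated RNA and from 0.19 to -0.04 in chromatin RNP RNA. In the rescaled total RNA 25 genes with a lost peak fell and 20 rose, against 2.22% lower and 4.36% higher over all genes. In the rescaled polyadenylated RNA 69 fell (9.06%) and 31 rose (4.07%), against 5.52% lower and 4.7% higher over all genes. By class, 13.2% fell with some peaks lost, 6.3% with all lost and 6.64% with kept peaks only. In the first 4 h library of total RNA a single transcript, AY036118, made up 15.2% of the summed FPKM. Without that library far fewer genes with a lost peak passed the test than the 210 with all libraries. Their median log2 fold change was then -0.26, in place of -0.34. Far fewer also passed without the first or second 0 h library (medians -0.3 and -0.39), and more passed without the second 4 h library (-0.43). No share over all genes is given for these settings, so the shifts cannot be read as particular to lost peaks. Relative to the rescaled libraries, Id3 (log2 fold change -1.03, adjusted p = 0.00515), Klf2 (-0.68, 0.012), Zfp42 (-0.64, 0.00899), Prdm14 (-0.77, 0.0157), Spry4 (-0.74, 0.0101) and Bmp4 (-0.45, 0.0298) were still lower in total RNA at 4 h by limma, and Neurod1 (1.58, 0.00312) was still higher. Fgf4 (-0.18, 0.121), Kat2b (-0.24, 0.166) and Exosc4 (-0.45, 0.216), which were called lower in total RNA before rescaling, did not pass after it.

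**Figure D5:**
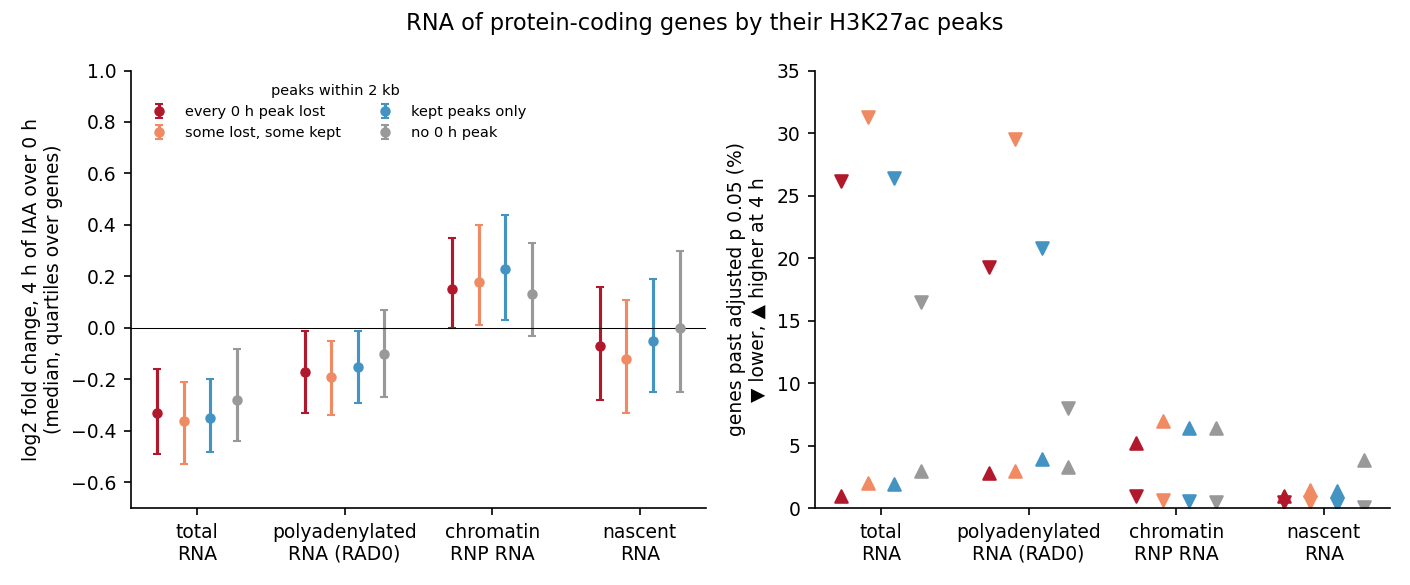
RNA at 4 h of IAA over 0 h for protein-coding genes grouped by their H3K27ac peaks within 2 kb, in 4 RNA assays (x axis). Left, median log2 fold change with quartiles over genes; right, percent of tested genes past adjusted p 0.05 that were lower (down triangles) or higher (up triangles), such as 31.3% lower in total RNA with some peaks lost and 26.4% with kept peaks only.

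Nascent RNA, which reports synthesis during the labelling pulse, moved in few genes beside lost peaks. At 1 h and 2 h limma called none of the 419 tested, with 16 and 32 at an unadjusted p under 0.05. At 4 h it called 2 lower and 5 higher, against 0.309% lower and 1.68% higher over the 6147 genes tested, and no call was left on dropping any single library. Their median log2 fold change was -0.09, against -0.05 for genes with kept peaks only. The highest rises by the naming rule, after Neurod1, were Glrx3, a glutaredoxin with 8.18 and 9.57 RPKM at 4 h against 3.39 and 3.89 RPKM at 0 h (log2 fold change 1.09 ± 0.14, limma adjusted p = 0.0344), and Phf3, with 9.87 and 10.1 RPKM at 4 h against 5.45 and 4.13 RPKM at 0 h (0.93 ± 0.14, adjusted p = 0.0439). Both calls ended whichever of the 4 libraries was left out. In chromatin RNP RNA 6 fell and 43 rose of 725, against 0.58% lower and 6.38% higher over all genes, and after rescaling 77 fell and 42 rose, against 9.25% lower and 6.64% higher. Single libraries moved these counts and the median log2 fold change of the genes with a lost peak, which was 0.16 with all libraries. It was -0.04 without the first 0 h library and 0.35 without the second, 0.27 without the first 4 h library and 0.07 without the second. No share over all genes is given for these settings, so the shifts cannot be read as particular to lost peaks.

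The largest fall beside a lost peak in polyadenylated RNA at 4 h, by the naming rule, was that of Chac1, which encodes a glutathione-degrading enzyme of the amino acid stress response and lost its only peak within 2 kb (chr2:119350455-119351268). It had 0.901 and 0.674 FPKM at 4 h, against 8.79 and 8.68 FPKM at 0 h (log2 fold change -2.45 ± 0.13, limma adjusted p = 1.45e-05). Its total RNA, 0.391 and 0.391 FPKM at 4 h against 0.617 and 1.06 FPKM at 0 h, was too low to be tested. Chac1 did not pass at 4 h in chromatin RNP RNA (-0.34 ± 0.24, adjusted p = 0.382) or in nascent RNA (-0.72 ± 0.44, adjusted p = 0.484). Ubox5, a ubiquitin ligase gene, had 1.96 and 1.57 FPKM of polyadenylated RNA at 4 h, against 5.39 and 4.62 FPKM at 0 h (-1.12 ± 0.13, adjusted p = 0.00111). Rises were led by Btbd19, with 23.2 and 19.5 FPKM at 4 h, against 7.18 and 7.33 FPKM at 0 h (1.43 ± 0.12, adjusted p = 0.000159). Btbd19 lost a peak from 5187 to 6026 bp, at the 3′ end of its 5444 bp locus, and kept the one over its start, from -970 to 910 bp. Vamp1, Dcun1d3 and Nr3c1, the glucocorticoid receptor gene, rose by 0.86, 0.86 and 0.75 on the log2 scale. The Dcun1d3 call ended without the second 4 h library, at adjusted p = 0.053.

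D930048N14Rik, which lost both of its 0 h peaks and had separate 4 h peaks on either side, had 10.7 and 11.2 FPKM of chromatin RNP RNA at 4 h, against 3.77 and 4.2 FPKM at 0 h (log2 fold change 1.26 ± 0.13, limma adjusted p = 0.000126). Its polyadenylated RNA was also called higher at 4 h (0.54 ± 0.11, adjusted p = 0.0112). Its nascent RNA was 3.56 and 3.19 RPKM at 4 h, against 3.39 and 4.72 RPKM at 0 h, and did not pass (-0.2 ± 0.29, adjusted p = 0.77). Its total RNA at 20 h did not pass either (0.27 ± 0.13, adjusted p = 0.0892). At 4 h its total RNA was 8.2 and 10.0 FPKM, against 4.89 and 4.57 FPKM at 0 h (0.81 ± 0.13, adjusted p = 0.0166). That call ended without the first or second 0 h library, at adjusted p = 0.0839 and 0.0693. Desmoglein 2, encoded by Dsg2, fell in total RNA, with 3.02 and 3.09 FPKM at 4 h against 7.57 and 6.56 FPKM at 0 h (-0.99 ± 0.12, adjusted p = 0.00978), a call that ended without the first 0 h library (0.0584).

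At 20 h most protein-coding genes were lower in total RNA, and genes with a lost peak at 4 h were called at a similar rate, with 531 of 705 lower (75.3%) and 37 higher, against 72.9% lower and 7.61% higher over all genes. In polyadenylated RNA 323 of 762 fell (42.4%) and 118 rose, against 37.0% lower and 17.4% higher. After rescaling, which moved the median of all genes from -0.79 to -0.03 in total RNA, 221 fell and 177 rose there, against 29.6% lower and 27.2% higher over all genes. In rescaled polyadenylated RNA 246 fell and 169 rose, against 27.7% lower and 23.7% higher. Fgf17, an FGF ligand, had 1.84 and 2.62 FPKM of polyadenylated RNA at 20 h, against 41.1 and 42.5 FPKM at 0 h (log2 fold change -3.74 ± 0.28, limma adjusted p = 1.14e-05). Pck2, the mitochondrial phosphoenolpyruvate carboxykinase gene, had 1.9 and 2.25 FPKM at 20 h, against 21.5 and 21.2 FPKM at 0 h (-2.87 ± 0.09, adjusted p = 1.57e-07). The lost peak of Pck2 was at the 3′ end of its locus, and the 0 h peak over its start, from -816 to 798 bp, was kept at 4 h. Isyna1, which encodes the enzyme that makes inositol phosphate from glucose phosphate, had 65.4 and 74.8 FPKM of total RNA at 4 h and did not pass then (-0.29 ± 0.14, adjusted p = 0.137). At 20 h it had 7.28 and 6.0 FPKM, against 85.9 and 85.3 FPKM at 0 h (-3.51 ± 0.14, adjusted p = 7.03e-05). Neurod1 reached 56.9 and 63.8 FPKM of polyadenylated RNA at 20 h, against 8.88 and 9.82 FPKM at 0 h (2.57 ± 0.11, adjusted p = 6.53e-07). Id3 stood closer to its 0 h level at 20 h than at 4 h, with 22.2 and 18.3 FPKM of total RNA at 20 h, against 29.9 and 27 FPKM at 0 h (-0.47 ± 0.15, adjusted p = 0.0239). That call turned to a rise after rescaling, and Crebbp did the same.

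Retinoic acid, which drives ESCs out of pluripotency, gave another view of the same genes without IAA. It shares its 0 h RAD0 libraries with the polyadenylated IAA comparisons, so values are set side by side only. Of the 762 genes with a lost peak tested, 198 were lower and 239 higher in RAD1 than in RAD0 cells, against 21.3% lower and 32.7% higher over all genes. After rescaling 247 were lower and 186 higher, against 26.8% lower and 27.1% higher over all genes. The largest rise by the naming rule was that of Ndufa4l2 (log2 fold change 4.49 ± 0.32), and the largest fall that of Fgf17 (-4.19 ± 0.28). The genes that follow are ones described above under IAA. Klf2 had 35.6 and 32.6 FPKM in RAD1 cells, against 88.5 and 103 FPKM in RAD0 cells (log2 fold change -1.46 ± 0.10, limma adjusted p = 9.4e-06). Foxd3 had 0.797 and 0.545 FPKM in RAD1 cells, against 20.4 and 22.4 FPKM in RAD0 cells (-3.75 ± 0.18, adjusted p = 1.34e-06). Neurod1 fell, with 0.743 and 1.04 FPKM in RAD1 cells, against 8.88 and 9.82 FPKM in RAD0 cells (-2.45 ± 0.11, adjusted p = 8.84e-07). Id3 rose, with 50 and 42.2 FPKM in RAD1 cells, against 17.5 and 17.9 FPKM in RAD0 cells (1.33 ± 0.11, adjusted p = 2.05e-05).

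Noncoding transcripts, many of which the exosome degrades, were examined beside lost peaks after the data had been seen. Of these, 242 had a lost peak within 2 kb, among them 78 lincRNAs and 67 antisense RNAs. In total RNA 36 were tested, and 16 rose (44.4%) while 1 fell, against 27.9% higher and 7.17% lower over all 1046 noncoding genes tested and 42.3% higher for noncoding genes with kept peaks only. In chromatin RNP RNA 23 of 65 rose (35.4%), against 20.5% higher over all and 32.8% higher with kept peaks only. Platr4, a lincRNA, had 17.3 and 19.3 FPKM of polyadenylated RNA at 4 h, against 3.59 and 3.23 FPKM at 0 h (log2 fold change 2.13 ± 0.08, limma adjusted p = 2.58e-06). Its total RNA was 11.3 and 12.8 FPKM at 4 h, against 4.08 and 4.24 FPKM at 0 h (1.34 ± 0.11, adjusted p = 0.004). Gm26766, an antisense RNA, had 4.2 and 5.37 FPKM of total RNA at 4 h, against 0.509 and 0.356 FPKM at 0 h (2.01 ± 0.15, adjusted p = 0.00199). The counting strand is not stated, so reads of overlapping genes on opposite strands cannot be told apart.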

How the data were processed

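For total, chromatin RNP and polyadenylated RNA the authors deposited FPKM values per gene. The submitters' processing notes name TopHat2 2.0.11, Cufflinks 2.0.2 and the build mm10 for them. Nascent values were deposited as RPKM over whole gene spans, per the labels, from reads trimmed with Trim Galore and mapped with TopHat2 2.0.11 to mm10 and, for spike-in cells, dm6. The H3K27ac lists came from Bowtie2 2.2.6 and MACS2, per the submitters' processing notes; for MACS2 the version, threshold, input control and any pooling are not stated. The lists hold no counts, and read depth per library is unknown.

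Peaks were matched at 1 bp. The members, gene lists and tests were chosen with earlier results of these data known. RNA was tested with limma 3.58.1 in R 4.3.3 on log2(value + 1), with a trend, keeping genes at 1 or more in at least 2 libraries, and with all groups of a table in 1 fit. Fold changes on that scale understate changes of low genes. Benjamini-Hochberg adjustment ran over all genes tested in a table, with a threshold of 0.05. Errors beside log2 fold changes are standard errors, with n = 2 libraries per group. Tests were tried on simulated data first. Alternatives changed the pseudocount to 0.1, the filter, the scaling, the replicate block, the trend, the peak rule and 1 library at a time; leaving out a library leaves 1 in its group, assumed to vary like the others. Within-table tests only were made.

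Named genes have a lost peak within 2 kb and are, per comparison, the 6 largest called rises and falls with separate libraries and a mean of at least 5 in the higher group. All list members with a lost peak, the 8 widest lost peaks, the 5 genes with most lost peaks and the 5 peaks on each side of the rule's edge were also named. Agpat3, Isyna1 at 4 h, Tbx3, Klf5, Mycn, Sox2 and the noncoding genes were named after their values were seen. 1 gene that the rule names is not reported here.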

Additional observations from a re-analysis of the deposited data

How the results depend on the processing

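Of the single-gene values tried under alternatives, 1321 kept their direction and side of the threshold, 131 lost the call, 16 gained it and 2 reversed, namely Id3 at 0.45 and Crebbp at 0.47 in total RNA at 20 h after rescaling. Asking a 0 h peak to be at least the median width left 363 lost peaks; other overlap rules gave 1495 to 2357. The share near gene ends, 36.3%, was 32.5% within 1 kb, 44.5% within 5 kb, 67.1% with whole loci counted and 26.2% for 5′ ends only. In total RNA at 4 h 210 genes with a lost peak passed; 5 did without the filter, 45 after rescaling, 80 with the replicate block and 4 to 315 under leave-one-out (4 and 8 without the first or second 0 h library, 18 without the first 4 h library). With 4 h peaks within 2000 bp also counted 121 passed, and 111 among genes whose peaks were all lost. In the same 2 sets of genes 353 and 320 passed in total RNA at 20 h, in place of 568. For nascent RNA at 4 h the 7 calls became 1 without the filter, 0 with the block, 0 under leave-one-out, and 4 and 3 in those sets. For chromatin RNP RNA 49 became 119 after rescaling, 18 to 288 under leave-one-out, and 26 and 26. For polyadenylated RNA at 4 h 200 became 100 after rescaling, 80 to 109 under leave-one-out, and 109 and 102; at 20 h 441 became 273 and 248. For retinoic acid 437 became 263 among genes whose peaks were all lost. The cause was not tested, except that smaller sets hold fewer genes and leave-one-out fewer libraries. The leave-one-out counts have no matching share over all genes here. They describe how stable the calls were and nothing particular to lost peaks. Differences between the 2 libraries of a group correlated weakly between the groups compared (correlations -0.0603 to 0.145). With 2 libraries per group this cannot show whether replicate numbers mark a batch. The counts with the replicate block are therefore given beside the others. The unknown depth of the ChIP libraries limits every statement on lost peaks.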

Other observations

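Genes nearest to lost peaks farther than 2 kb from any gene end were examined after the data had been seen. Counting genes with and without a lost peak within 2 kb, 986 were nearest to 1 distal lost peak, 102 to 2, 16 to 3 and 7 to 4. Those with 4 were Glod5 (4 of 4 distal peaks), Cdh2 (4 of 6), Sept9 (4 of 10), Tbx3 (4 of 10), Mycn (4 of 11), Sgk1 (4 of 16) and Pgbd5 (4 of 36). Most of the genes, those nearest to 1 distal lost peak, are left out of the RNA counts that follow. Of 117 genes nearest to 2 or more distal lost peaks, with none within 2 kb, 97 were tested in polyadenylated RNA at 4 h. Of these 33 fell and 1 rose (34.0% lower), against 24.5% lower of 805 genes with 2 or more distal peaks, all kept, 26.7% of 146 genes with 4 or more, all kept, and 16.6% over all protein-coding genes. The medians were -0.23, -0.16 and -0.17 on the log2 scale. After rescaling 16 fell (16.5%), against 9.19% and 9.59%. Leaving out 1 library at a time gave 13 to 22 lower in the first set. In total RNA 44 of 92 fell (47.8%), against 30.4% of 733 and 30.4% of 135 genes and 23.9% over all, but this rested on single libraries. Without the first or second 0 h library 1 and 4 fell, without the first 4 h library 7, without the second 57, and after rescaling 7. The difference between these sets was not tested, and the 117 genes had a median of 4 distal peaks, against 2 and 4 in the other sets.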
